A study of Saccharomyces cerevisiae with 4 samples.

Results

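Ribonucleotide reductase and its checkpoint control are described here by 8 Saccharomyces cerevisiae genes, chosen by name: the large-subunit genes RNR1 (YER070W) and RNR3 (YIL066C), the small-subunit genes RNR2 (YJL026W) and RNR4 (YGR180C), the inhibitor gene SML1 (YML058W), the kinase gene DUN1 (YDL101C), the repressor gene RFX1 (YLR176C) and the damage-induced gene HUG1 (YML058W-A). They are 8 of 6256 genes with a probe on the array, each probe was printed as 7 spots, and all 8 probes passed the filter on dim signals. RNA of the translocant strain D10 Small, from 4 biological replicates grown in YPD with kanamycin at 200 mkg/ml, was compared with a pool of RNA of its parental strain WT San I, grown in YPD, for which the labels mention no kanamycin. Both were harvested at OD595 near 0.4-0.5. Each of the 4 two-colour arrays held D10 Small cRNA in Cy3 and pool cRNA in Cy5. The labels give no genotype beyond these strain names and do not say what was pooled, and what distinguishes the strains cannot be told apart from kanamycin or from the dyes, which were not swapped. The pool is 1 control sample measured on 4 arrays, so its own biological spread is in no test.

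Ribonucleotide reductase converts ribonucleotides to the deoxyribonucleotides used in DNA synthesis. Its large subunit carries the catalytic and regulatory sites, and its small subunit carries an iron-dependent radical. In budding yeast the large subunit is mainly Rnr1, with Rnr3 as a damage-inducible form, and the small subunit pairs Rnr2 with Rnr4. The checkpoint kinases Mec1 and Rad53 act through the kinase Dun1, which marks the inhibitor Sml1 for destruction and inactivates the repressor Rfx1, also named Crt1. Rfx1 represses RNR2, RNR3, RNR4 and HUG1 through the Tup1 and Cyc8 corepressor, while RNR1 is transcribed at the entry into S phase by the factor MBF.

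The genes of this pathway moved in different directions in D10 Small. SML1, RNR2 and RNR3 were higher, RNR1, DUN1 and RFX1 were lower, and RNR4 and HUG1 did not pass the test. The test was limma's moderated test of the log2 ratio of D10 Small over the pool against 0, fitted over 5794 genes with Benjamini-Hochberg adjustment at 0.05. Of the 8 genes, 6 passed, against 82.7% of all genes tested, so passing does not set this group apart. The 3 higher and 3 lower genes stood against 43.2% of all genes higher and 39.6% lower, so the split in direction does not set the group apart either. As processed here, SML1 was the 1 gene of the 8 past a 2-fold difference, while 6.2% of all genes were higher and 3.05% lower by as much. RNR3 was also past 2-fold with an offset of 0 and with the net ratio of the scanner files, and DUN1 with the net ratio, as given below. Tested against a minimum fold of 1.2, SML1 and RNR2 were higher and RNR1 and DUN1 lower, beside 24.6% of all genes higher and 19.9% lower. The median ratio of all tested genes was 0.02 on the log2 scale.

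**Figure D1:**
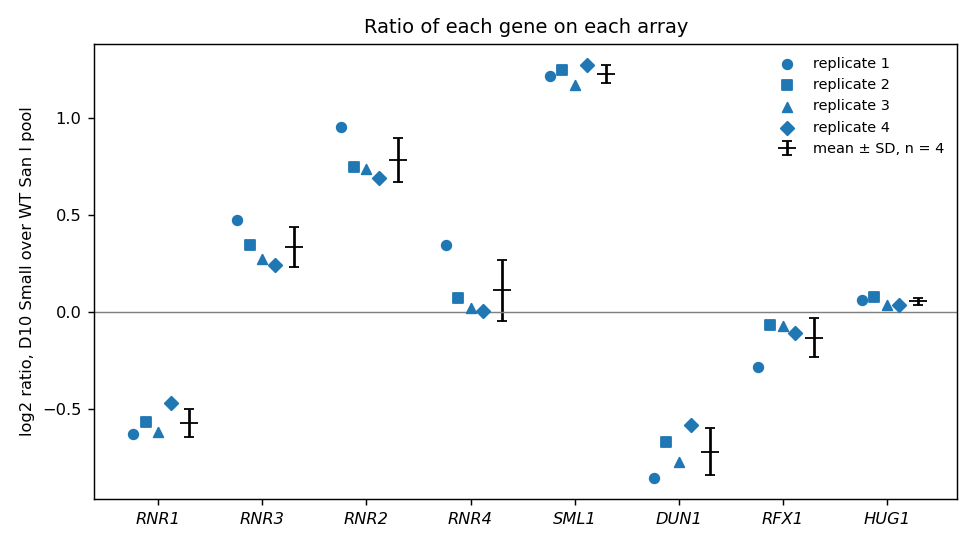
Log2 ratio of D10 Small over the WT San I pool for each gene (y axis) on each of 4 arrays (marker shapes), with the mean and SD beside them. SML1 sits near 1.23 on every array, RNR1 and DUN1 lie below 0 on every array, and RNR4 spreads from 0.35 on replicate 1 to near 0 on the others.

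Pearson's r between the ratios of any pair of arrays ran from 0.975 to 0.990 across genes, which are not independent replicates. Probes above background made up 91.8% to 93.2% of all probes in the D10 Small channel and 86.0% to 89.1% in the pool's channel. Other features of the cells differed along with these genes. The haploid-specific gene STE4, which encodes the pheromone G protein beta subunit and is repressed in a/alpha diploids, had a log2 ratio of 3.38 ± 0.29 (SD, n = 4), and OLI1 of the mitochondrial genome was above background in the pool but on no array in D10 Small. Of all genes tested, 39.6% were lower in D10 Small and 43.2% higher, while of 16 S-phase genes 15 were lower and 1 was higher. These S-phase genes had a median ratio of -0.57. The part of these differences in the results below was not tested, and in such bulk RNA fewer cells in S phase and less RNA per cell cannot be told apart.

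RNR1, which encodes the main large subunit, was lower in D10 Small. Its normalised signal, in arbitrary units that can be compared within a gene only, was 881, 956, 853 and 995 in D10 Small, against 1359, 1412, 1310 and 1377 in the pool on the same arrays. The highest D10 Small value lay below the lowest pool value. This gave a log2 ratio of -0.57 ± 0.07 (SD, n = 4), with an adjusted p of 2.46e-06 by limma and a 95% interval from -0.65 to -0.48, which is 1.48-fold lower. The ratio of RNR1 changed little with the processing, from -0.70 to -0.55 over 15 alternatives. The S-phase genes counted above had ratios from -1.51 to 0.31 with a median of -0.57, and 39.6% of all tested genes were lower. Whether the cell cycle stage had a part in the ratio of RNR1 was not tested. On the right arm of chromosome V, the 20 tested genes nearest to RNR1 had a median ratio of 0.00. Of these, 9 were higher and 5 lower, and 2 lay below RNR1.

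RNR3, the damage-inducible paralog of RNR1, was dim in both strains and higher in D10 Small. The normalised signals of RNR3 were 101.4, 94.2, 89.1 and 88.5 in D10 Small, against 72.9, 74.1, 73.6 and 74.8 in the pool. D10 Small was above background on all 4 arrays and the pool on 2 of 4, so RNR3 entered the test through D10 Small, which favours a positive ratio. The D10 Small signals did not overlap with the readings of the pool, and replicate 1 had the highest ratio. Entry through D10 Small also favours this lack of overlap and a small p, so neither is support for a higher RNR3. The log2 ratio was 0.33 ± 0.10 (SD, n = 4), 1.26-fold, with an adjusted p of 0.000152 by limma. Because a dim signal is drawn toward a ratio of 0 by the offset of 50 added in background correction, the size of this difference is uncertain. It was 1.05 with an offset of 0, 0.74 on uncorrected intensities, 0.85 in the value table that the authors deposited and 1.63 with the net ratio of the scanner files. It was 0.12 with median centring of the arrays in place of loess, where the adjusted p of 0.323 by limma missed the threshold.

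On the same arrays, the ratio of RNR3 exceeded that of RNR1 in 4 of 4 arrays, by 0.90 ± 0.16 on the log2 scale (SD, n = 4). An exact two-sided sign-flip permutation test gave p = 0.125, the smallest p that 4 arrays allow. RNR3 entered the test through D10 Small, which favours a positive difference, so its direction is no support for a higher RNR3. This difference inherits the uncertain size of RNR3: it was 0.67 with median centring, 1.34 on uncorrected intensities, 1.67 with an offset of 0, 1.45 from the deposited value table and 2.33 from the scanner's net ratio. RNR1 and RNR3 are similar in sequence, and whether their probes share signal was not tested.

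RNR2, which encodes the small subunit that holds the iron-dependent radical, was higher in D10 Small. In D10 Small the normalised signal of RNR2 was 6884, 6503, 6673 and 5899, against 3554, 3864, 3997 and 3646 in the pool. All D10 Small values lay above all pool values, and over the 5 to 7 spots kept per array the SD of the log2 ratio was 0.11 to 0.21. RNR2 had a log2 ratio of 0.78 ± 0.12 (SD, n = 4), 1.72-fold, with an adjusted p of 1.54e-06 by limma. Loess, which corrects the dye balance along brightness, moved the ratio of RNR2 by 0.65. With median centring the ratio was 0.14 and still passed, with an adjusted p of 0.0178 by limma. No neighbour reached it: all 20 nearest tested genes on the left arm of chromosome X had lower ratios, with a median of -0.09.

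RNR4, whose product pairs with Rnr2 in the small subunit, did not pass the test. Its normalised signal was 1885, 1606, 1677 and 1637 in D10 Small, against 1481, 1529, 1648 and 1627 in the pool. Replicate 1 stood above the pool and the other replicates overlapped with it. RNR4 had a log2 ratio of 0.11 ± 0.16 (SD, n = 4), with an adjusted p of 0.102 by limma and a 95% interval from -0.02 to 0.25. Without replicate 1 the ratio was 0.03.

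RNR4 lies among genes that were themselves lower. It sits on the right arm of chromosome VII, where 207 of 272 tested genes were lower in D10 Small and 40 were higher, with a median ratio of -0.48. Of the 20 tested genes nearest to RNR4, 17 were lower and 1 was higher, with a median ratio of -0.57. RNR4 lay above all 20 of them, although its 95% interval from -0.02 to 0.25 takes in the values of the closest ones. The closest in value were CBP4, a mitochondrial assembly factor, with 0.09 and the squalene epoxidase gene ERG1 with 0.07. The genes directly beside it, OKP1 of the kinetochore and TIM13 of mitochondrial import, had ratios of -0.82 and -0.68. Taken relative to the median of its neighbours on each array, RNR4 was higher by 0.68 on the log2 scale, with an adjusted p of 5.69e-06 in limma over all genes treated the same way. This value takes in the low median of the neighbours, and the ratio of RNR4 itself did not pass. The share of the 5557 genes so treated that passed is not given here, so this pass does not set RNR4 apart. The relative value of RNR2 under that treatment was 0.89, and those of SML1 and RNR1 were 1.35 and -0.61.

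**Figure D2:**
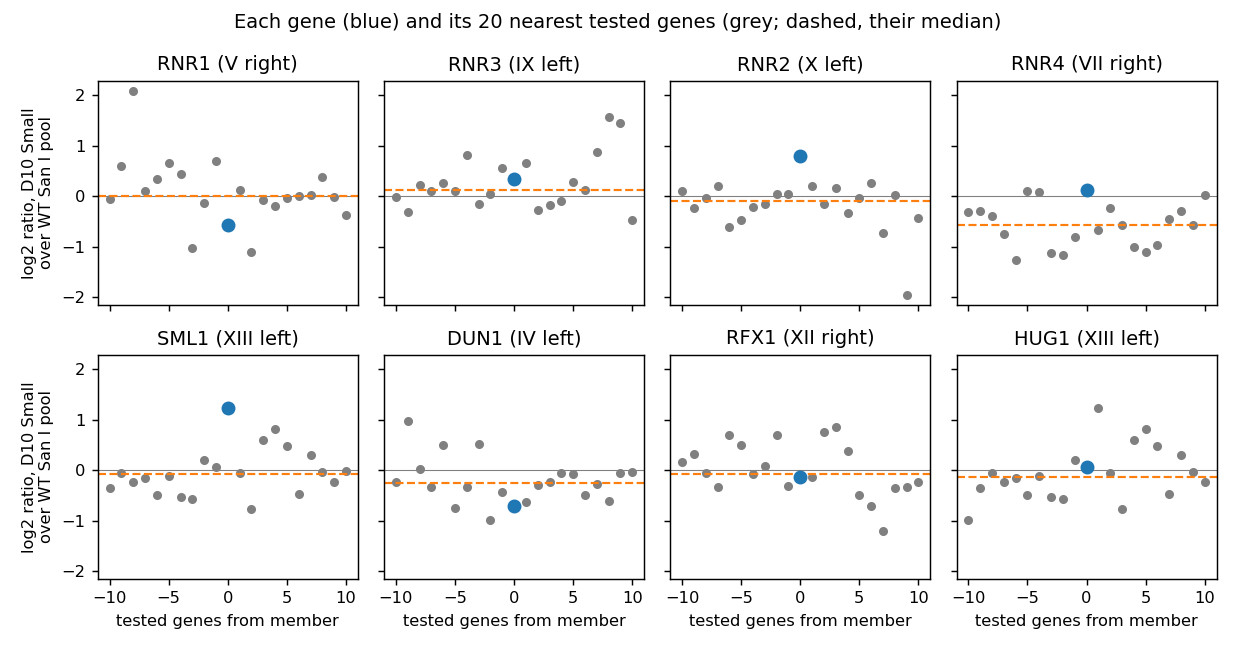
Log2 ratio of D10 Small over the WT San I pool (y axis) for each gene (blue) and for the 10 tested genes on either side of it on the same chromosome arm, by gene order (x axis), with the neighbours' median dashed. RNR2, RNR4 and SML1 lie above all of their 20 neighbours, RNR4 by a narrow margin, and the neighbours of RNR4 have a median of -0.57.

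Without reference to neighbours, the ratio of RNR4 was below that of RNR2 on 4 of 4 arrays, with a difference of -0.67 ± 0.05 on the log2 scale (SD, n = 4). The exact two-sided sign-flip permutation p was 0.125, again the smallest that 4 arrays allow. The difference was steady between arrays, from -0.71 to -0.61, although the ratios of both genes were highest on replicate 1. With median centring it was -0.16.

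SML1, whose product binds the large subunit and inhibits the enzyme, was higher in D10 Small. Its normalised signal was 3047, 3336, 3110 and 3011 in D10 Small, against 1312, 1404, 1383 and 1243 in the pool. Every D10 Small value was well above every pool value. SML1 had a log2 ratio of 1.23 ± 0.05 (SD, n = 4), 2.34-fold, with an adjusted p of 3.45e-08 by limma and a 95% interval from 1.15 to 1.30. This placed SML1 in position 229 of 5794 genes ordered from the highest ratio. The value ran from 0.99 to 1.35 over 15 alternatives and passed the test in all of them.

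HUG1, the gene next to SML1 on the left arm of chromosome XIII, encodes a small protein induced by DNA damage and replication stress that binds the small subunit. The normalised signals of HUG1 were 65.1, 64.2, 62.3 and 63.2 in D10 Small, against 62.3, 60.7, 60.6 and 61.5 in the pool. These signals include the offset of 50. On no array was the pool above background, so HUG1 entered the test through D10 Small, which favours a positive ratio. HUG1 had a fitted log2 ratio of 0.06 ± 0.02 (SD, n = 4), with an adjusted p of 0.107 by limma, and did not pass the test. The net intensity is the spot intensity less its local background, before the offset and loess. It was 20.6, 14.3, 11.6 and 11.6 in D10 Small, over thresholds of 12.1, 8.21, 8.42 and 8.95. In the pool it was 4.40, -0.17, 0.11 and 0.38, under thresholds of 5.38, 3.29, 3.73 and 4.04. The direction of HUG1 turned with the processing, from -0.50 with median centring to 0.47 with an offset of 0, both past the test with adjusted p of 0.000609 and 9.12e-06 by limma.

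**Figure D3:**
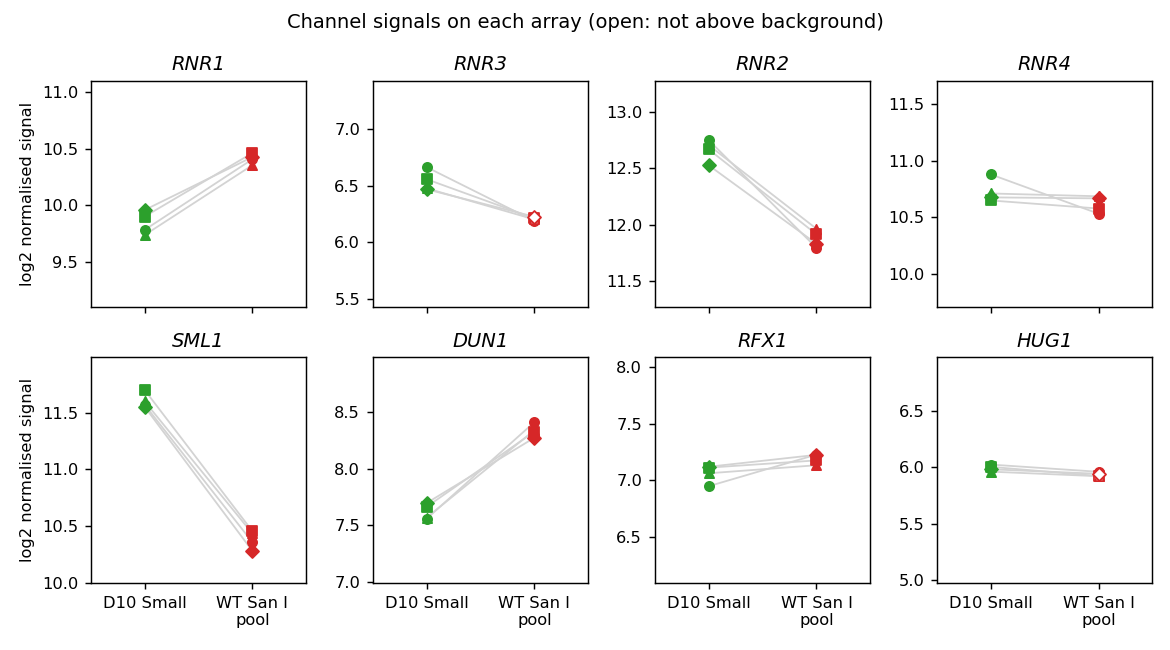
Log2 normalised signal (y axis) of each gene in D10 Small (green, left) and in the WT San I pool (red, right), with a line joining the channels of each of 4 arrays and a marker shape for each replicate. Open markers are not above background: RNR3 in the pool on 2 arrays and HUG1 in the pool on all 4; signals can be compared within a panel only.

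DUN1, the kinase gene between the checkpoint and its targets Sml1 and Rfx1, was lower in D10 Small. Its normalised signal was 188.5, 202.7, 189.8 and 207.5 in D10 Small, against 340.8, 321.5, 324.3 and 309.6 in the pool. The D10 Small values did not overlap with the readings of the pool. DUN1 had a log2 ratio of -0.72 ± 0.12 (SD, n = 4), 1.64-fold lower, with an adjusted p of 2.97e-06 by limma, and 7.53% of all tested genes had a lower ratio. The size ran from -1.06 with the scanner's net ratio to -0.48 with median centring and -0.47 relative to its neighbours on the left arm of chromosome IV. Those 20 neighbours had a median of -0.26, and 12 of them were lower and 3 higher. The genes directly beside DUN1 were POL3, the catalytic subunit of DNA polymerase delta, with -0.43 and GET3 with -0.63. Of the 20 neighbours, 2 lay below DUN1.

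RFX1, the repressor gene of the pathway, differed little. Normalised signals of RFX1 were 123.5, 138.4, 133.7 and 139.2 in D10 Small, against 149.9, 144.7, 140.5 and 149.7 in the pool. The highest D10 Small value was just below the lowest pool value, and replicate 1 was the lowest. The log2 ratio was -0.13 ± 0.10 (SD, n = 4), 1.09-fold lower, with an adjusted p of 0.0224 by limma and a 95% interval from -0.23 to -0.03. It did not pass with median centring, at -0.0085 with an adjusted p of 0.868 by limma, nor relative to its neighbours, at -0.074, and it was -0.35 with the scanner's net ratio.

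**Figure D4:**
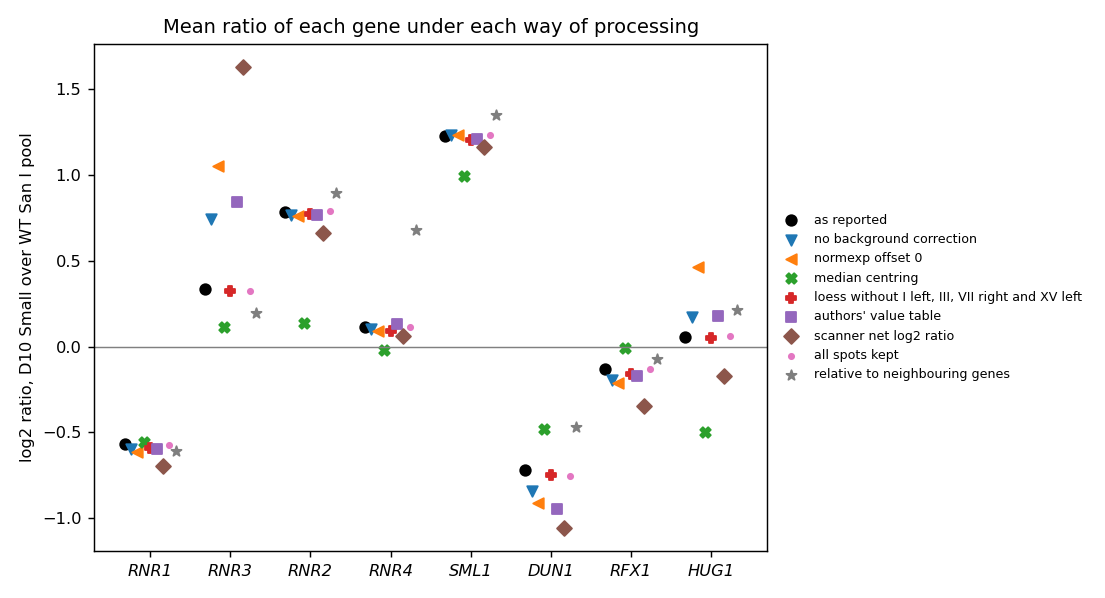
Mean log2 ratio of D10 Small over the WT San I pool for each gene (y axis) as reported and under 8 other ways of processing (marker shapes and colours). RNR1 and SML1 stay within narrow ranges, RNR2 is at 0.14 with median centring, RNR3 spreads from 0.12 to 1.63 and HUG1 lies on either side of 0.

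The other genes around the enzyme were taken from lists by role, 75 genes in all, of which 26 were higher and 41 lower in D10 Small. The 16 S-phase genes given above are among them. All 75 passed the filter on dim signals. The counts below stand against the 43.2% higher and 39.6% lower of all genes tested. With median centring the medians of the corepressor, iron and damage-induced lists changed sign, to 0.04, 0.12 and -0.05, and that of the corepressor list was 0.02 without replicate 4.

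Among 9 genes for other enzymes and reductants of deoxynucleotide synthesis, 7 were lower and 2 higher (median ratio -0.26). TRX2, a thioredoxin that can reduce the enzyme after each turnover, was lowest with -1.12 ± 0.11 (SD, n = 4), and it lies on the same arm as RNR4. The dUTPase gene DUT1 had -0.51 ± 0.09 and the thioredoxin reductase gene TRR1 had -0.46 ± 0.03. Higher were DFR1, dihydrofolate reductase, with 0.75 ± 0.15, and YNK1, the nucleoside diphosphate kinase, with 0.52 ± 0.05. With median centring 4 genes of this list were lower in place of 7, DUT1 had -0.26 and TRR1 had -0.75.

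Of 17 checkpoint sensors, adaptors, kinases and phosphatases, 9 were higher, 3 were lower and 5 did not pass, with a median of 0.23. The lower genes numbered 5 without replicate 1, 5 in the authors' value table, 5 when loess was fitted without chromosome III and the arms I left, VII right and XV left, and 6 by the net ratio of the scanner files. Median centring gave 12 higher and 2 lower. The phosphatase gene PTC3, which acts on Rad53, had 0.68 ± 0.05, and the damage checkpoint genes RAD9, an adaptor, and RAD24, a clamp loader subunit, both had 0.51, with SDs of 0.07 and 0.04. The lower genes were the replication checkpoint mediator MRC1, with -0.92 ± 0.16, its partner at the fork TOF1, with -0.40 ± 0.09, and the kinase gene RAD53, with -0.13 ± 0.05. MRC1 lies on the left arm of chromosome III, where 44 of 54 tested genes were lower, at a median of -0.80. MEC1, the kinase at the head of the pathway, was higher with 0.24 ± 0.05, or 0.43 with the scanner's net ratio. With median centring RAD53 turned to 0.06 and did not pass, and PTC3 and TOF1 had 0.27 and -0.15. MRC1 was at -1.71 in the authors' value table.

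**Figure D5:**
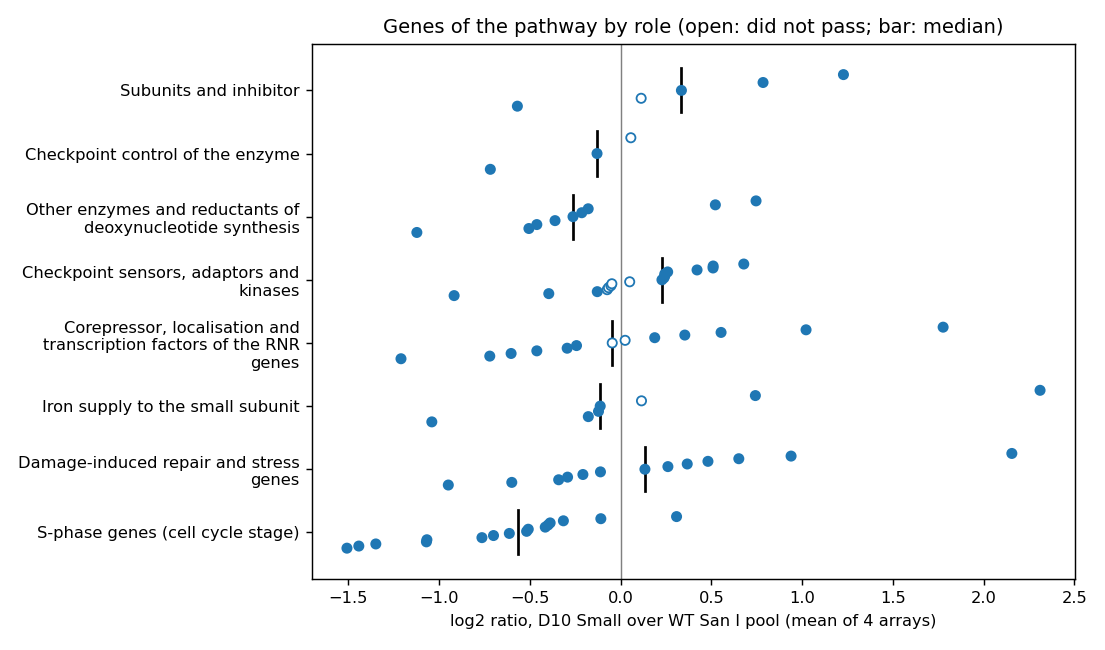
Mean log2 ratio of D10 Small over the WT San I pool over 4 arrays (x axis) for each gene of the pathway, by role, with the median of each role as a bar; open circles did not pass limma's test at an adjusted p of 0.05. S-phase genes lie at a median of -0.57, and the highest ratios belong to TIS11, UBI4 and WTM1.

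The list of corepressor, localisation and transcription factors held 5 higher and 6 lower genes of 13, with a median of -0.05. WTM1, which anchors Rnr2 and Rnr4 in the nucleus, was among the 3 genes of highest ratio on these lists. It stood at 1.79, 1.70, 1.83 and 1.78 on the 4 arrays, a mean of 1.78 ± 0.06 (SD, n = 4) and 3.43-fold. Its paralog and neighbour WTM2 had 1.02 ± 0.05. DIF1, which brings Rnr2 and Rnr4 into the nucleus, had 0.02 ± 0.09 and did not pass. The localisation factors therefore differed among themselves.

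TUP1, the corepressor that Rfx1 recruits, was lower with -1.33, -1.26, -1.17 and -1.07 on the 4 arrays, a mean of -1.21 ± 0.11 (SD, n = 4) and 2.31-fold lower. It lies on the right arm of chromosome III, where 62 of 96 tested genes were lower, at a median of -0.31. Its partner CYC8 on chromosome II was higher with 0.35 ± 0.04. SWI6, a subunit of the MBF and SBF factors of G1, and IXR1, an activator of RNR1, were lower with -0.72 ± 0.09 and -0.60 ± 0.05, and MBP1, the DNA-binding subunit of MBF, was lower with -0.29 ± 0.07. RAD6, a ubiquitin-conjugating enzyme with a role in Sml1 breakdown, was higher with 0.55 ± 0.04, while UBR2, the ligase of that step, had -0.05 ± 0.16 and did not pass. MUB1, also on this list, was higher with 0.19 ± 0.05. With median centring MBP1 had -0.053 and did not pass, and UBR2 passed as higher with 0.19, while SWI6 had -1.18 with the scanner's net ratio.

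Iron supply genes went both ways, with 2 higher and 4 lower of 7 and a median of -0.11, or 3 higher and 2 lower with median centring. TIS11, also named CTH2, which degrades mRNAs when iron is scarce, had the highest ratio on any of these lists, with 2.31 ± 0.12 (SD, n = 4), or 3.71 with the scanner's net ratio. DRE2, needed for the assembly of iron-sulfur proteins and of the Rnr2 cofactor, was lower with -1.04 ± 0.16. GRX4, an iron-binding glutaredoxin, was higher with 0.74 ± 0.11. The partner of DRE2, TAH18, with -0.18 ± 0.05, and CTH1, with -0.12 ± 0.06, were lower, and both turned to positive ratios with median centring and did not pass.

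Of 13 damage-induced repair and stress genes, 7 were higher and 6 lower (median 0.13). The polyubiquitin gene UBI4 led with 2.16 ± 0.09 (SD, n = 4), or 1.38 with median centring. The nucleotide excision repair genes RAD16 and RAD7 followed with 0.94 ± 0.01 and 0.65 ± 0.12. In the other direction, DDI1 had -0.95 ± 0.06 and the repair nuclease gene RAD2, on the right arm of chromosome VII, had -0.34 ± 0.08. The genes of this list share the description damage-induced with RNR3 and HUG1. Their split lies near that of all genes tested, 43.2% higher and 39.6% lower, so it does not set them apart. With median centring RAD2 had -0.14.

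The S-phase genes, listed as a measure of the cell cycle stage, were led downward by the histone gene HTB1 with -1.51 ± 0.09 (SD, n = 4), the replication protein gene RFA1 with -1.44 ± 0.10 and the cohesin gene MCD1 with -1.35 ± 0.05. PRI2, a primase subunit, was the 1 higher gene, with 0.31 ± 0.11. With median centring 14 of the 16 were lower, and PRI2 had 0.19 with the scanner's net ratio.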

How the data were processed

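Per the file headers, the deposited scanner files hold linear spot intensity and local background of each channel, and a net log2 ratio whose rescaling is not named. The authors deposited a value table of log2 ratios whose normalisation is not stated. Correlation with the ratios computed here, r from 0.965 to 0.972 over genes, sets its direction (D10 Small over pool). The scanner software is not given in the sources used here.

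Mean intensities were corrected with limma 3.58.1 (R 4.3.3) by normexp with an offset of 50 and normalised by loess within each array, with control spots at weight 0. The offset draws dim ratios toward 0. Spots counted as above background at a net signal over the mean of 153 negative controls plus 2.6 SD, and probes with most of their 7 spots above it. Spots over 1.42 interquartile ranges beyond their probe's quartiles in either channel were left out, 6.47% to 8.77% of them per array. Tested genes were above background in either channel on 3 or more arrays, and 462 of 6256 were left out. Normalised signals are per channel after loess and Aquantile scaling. Ratios were tested with lmFit and eBayes against 0. Precision is limited by the 4 arrays, which share a slide, so no slide block was fitted.

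Gene order and 5756 of 6256 symbols came from a RefSeq table of the R64 assembly. Its gene starts served only to order the genes along each arm. No coordinates are printed because the files name no build. No sequences were used here. The 8 genes, the lists and the tests were chosen with earlier results of these data known. Named are the 8 genes, their neighbours where a value turns on them, and for each list up to 3 highest and 3 lowest genes past the test with 1 sign on every array, of which 1 gene is not reported here. MEC1, CYC8, DIF1, MBP1, UBR2 and MUB1 were named after their values were seen. The procedure was run on simulated arrays in which few genes changed, equally in both directions, and no chromosome arm was shifted. It was not tested under changes as wide as those in these data.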

Additional observations from a re-analysis of the deposited data

Results flagged for a closer look

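In 2 of 42 sets of 4 ratios examined (the named genes and the differences between paralogs), 1 array lay far from the other 3 by Dixon's test, where chance gives about 1 in 20. TRX2 had -0.96 on replicate 4 and -1.17 as the next value, a gap of 0.880 of the whole range. RAD9 had 0.62 on replicate 4 and 0.49 as the next value, a gap of 0.862 of the range. None of the 8 genes of the enzyme and its control was among them.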

How the results depend on the processing

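Over the alternatives run, RNR1, RNR2, SML1 and DUN1 kept their direction and passed the test in all 15, with DUN1 from -1.06 to -0.47 and RNR2 from 0.14 to 0.89. With median centring RNR4 reversed to -0.021 and HUG1 to -0.50, and RNR3 at 0.12 and RFX1 at -0.0085 no longer passed. HUG1 was also at -0.17 with the scanner's net ratio. HUG1 passed as higher without background correction (0.17), with an offset of 0 (0.47), in the authors' value table (0.18) and relative to its neighbours (0.21). These calls set D10 Small against a pool below background on every array. HUG1 also entered the test through D10 Small, so they are no support for a higher HUG1. Relative to neighbours, where the share of all genes passing is not given here, RNR4 passed with 0.68 and RFX1 did not with -0.074. Against a minimum fold of 1.2, RNR3 at 0.33 and RFX1 at -0.13 did not pass, 1425 genes of all tested were higher and 1151 lower, and of the 75 genes around the enzyme 16 were higher and 26 lower. Requiring both channels above background, which was chosen after seeing the data, left out RNR3 and HUG1. The cause of these shifts was not tested, beyond the smaller number of calls that a minimum fold gives by construction. Leaving out 1 replicate changed no call of the 8 genes, with RNR4 from 0.03 to 0.15 and RFX1 from -0.15 to -0.08. No paired analysis was possible because D10 Small is the only group and each array holds the same pool. Dim signal limits RNR3 and HUG1.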

Other observations

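Replicate 1 gave the ratio farthest from 0 for 6 of the 8 genes, and SML1 and HUG1 were the exceptions. The share of all tested genes for which this holds is not given here, so the count does not set these genes apart. The ratios of replicate 1 also had the widest spread over all tested genes, with an SD of 0.72 on the log2 scale. Replicates 2, 3 and 4 had SDs of 0.65, 0.64 and 0.60. The median raw spot intensity on replicate 1 was 444 in the D10 Small channel and 261 in the pool's channel, the highest of the 4 arrays in both channels.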
